A study of Mus musculus with 8 samples.

Results

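The genes described here carry out MHC class I presentation. There are 8 of them among the 21080 gene symbols measured, and they were chosen by symbol: the heavy chains H2-K1 and H2-D1, the light chain B2m, the peptide transporter subunits Tap1 and Tap2, the loading factor Tapbp, the trimming enzyme Erap1 and the transactivator Nlrc5. The samples were bone marrow-derived macrophages (BMDMs), which grow out of mouse marrow in culture with M-CSF, and their RNA was sequenced to find what depends on Nudt21, a subunit of the mRNA cleavage factor that influences which polyadenylation site is used. There were 4 groups of 2 samples, and every sample was a pool from 2 C57BL/6 mice. WT mice were sex-matched littermates that carried the LysM Cre alone, and Nudt21-cKO mice were Nudt21 fl/fl with the LysM Cre, so that both genotypes expressed Cre. LysM is active in myeloid cells, and the ages of the mice are not given in the sources used here. Each genotype was taken at 0 h, without stimulation by the titles although the treatment label names it for all samples, and after IFNγ overnight and then LPS for 4 h.

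Class I molecules display peptides from the cell's own proteins to CD8+ T cells. Peptides made largely by the proteasome are carried into the endoplasmic reticulum by the TAP1/TAP2 transporter, trimmed by ERAP1 and loaded with the help of tapasin, the product of Tapbp, onto a heavy chain paired with β2-microglobulin. NLRC5 drives transcription at class I promoters together with factors that bind the SXY module, and interferon γ and NF-κB signals raise the same genes in macrophages.

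Of the 8 genes, 5 lie in the MHC on chromosome 17 of GRCm38, all positions given here being those of GENCODE M21. Tapbp lies at chr17:33915899-33929292, H2-K1 at chr17:33996017-34000347 on the minus strand, Tap1 at chr17:34187553-34197225, Tap2 at chr17:34203527-34216321 and H2-D1 at chr17:35262730-35267499. B2m lies at chr2:122147686-122153083, Erap1 at chr13:74639568-74693201 and Nlrc5 at chr8:94434356-94527272. The 7 genes other than H2-K1 are on the plus strand.

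RefSeq promoters on GRCm38.p6, from 250 bases before to 50 after the start, were held for 6 of the 8 genes and were searched on both strands for 4 motifs. The NF-κB motif, by its name, occurred in 8.5% of 32851 promoters. The 2 heavy chain genes share a match within similar bases, and H2-Q7, a nonclassical heavy chain gene that is described with the 4 h values, has it too. These windows are shown because they belong to genes that stimulation raised in at least 1 genotype, with the match in capitals.
H2-K1, chr17:34000439-34000468, minus strand: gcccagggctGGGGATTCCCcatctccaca
H2-D1, chr17:35262913-35262942, plus strand: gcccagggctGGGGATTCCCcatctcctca
H2-Q7, chr17:35439012-35439041, plus strand: gcccatggctGGGGATTCCCatctccccag
The first capital stands at -111 or -125 from the 2 annotated starts of H2-K1, at -171 from that of H2-D1 and at -133 from that of H2-Q7. B2m had a match to this motif as well, at -126, on the minus strand.

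The short CRE half-site TGACG, part of the X2 box of class I promoters, occurred in 20.8% of all promoters. It was found in 4 of the 6 class I promoters, and in H2-K1, H2-D1 and B2m it lay nearer to the start than the other motif shown for that gene.
H2-K1, chr17:34000372-34000400, minus strand: tccggacactgtTGACGcgcagtcagctc
H2-D1, chr17:35262981-35263009, plus strand: ccgggacactgaTGACGcgctggcaggtc
B2m, chr2:122147597-122147625, plus strand: ctaggagactggTGACGacctccggatct
Tap1, chr17:34187458-34187486, plus strand: cccagagacaggTGACGacagagggtcct
The Tap1 window also lies in the promoter of Psmb9, which is read in the opposite direction. The interferon response element core GAAANNGAA (8.6% of promoters) was matched in B2m and, on the minus strand and so printed as its reverse complement, in Erap1.
B2m, chr2:122147538-122147566, plus strand: ataagaacatGAAACTGAAaatgggaaag
Erap1, chr13:74639834-74639862, plus strand: ccggtccaccTTCACTTTCactttcggtc
The gamma-activated site TTCNNNGAA (8.3% of promoters) was in none of the 6 class I promoters, and Tapbp had no match to any of the 4 motifs in this window. A match is a run of letters and not a measured binding site.

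Values are mean read coverage per base of a gene, so levels of different genes can be set side by side, and they are not scaled between samples. Summed over all genes, the coverage was 14950347 to 15827594 in the 4 WT samples and 16650103 to 17954882 in the 4 cKO samples. The files do not give the reads behind each value of a gene. Nudt21 coverage was 547 to 718 in WT and 115 to 172 in cKO samples, and its log2 fold change was -2.04 at 0 h and -2.13 at 4 h, with adjusted p of 0.0462 and 0.0445 in limma. All 8 macrophage markers were detected, and their summed coverage at 0 h was 120000 to 129000 in WT against 123000 to 131700 in cKO, and at 4 h it was 50690 to 55590 against 61900 to 64900. The markers moved in opposite directions between the genotypes, so the sums hide differences. At 0 h Cd68 was 42908 to 45504 in WT against 69414 to 73397 in cKO, and Lyz2 was higher in cKO as well, but Adgre1 was 20130 to 24458 against 13820 to 14295, and Csf1r, Mrc1, Itgam and Fcgr1 were also lower in both cKO samples. At 4 h Cd68 was 12362 to 13101 against 24827 to 28817, with Lyz2 and Mertk higher in cKO too, whereas Adgre1, at 12400 to 13299 against 8983 to 9642, Mrc1 and Fcgr1 were lower and Csf1r and Itgam overlapped. Markers of T, NK, B, mast and erythroid cells summed to at most 205 for any 1 of these lists in a sample and fibroblast markers summed to 52.2 to 224. Dendritic cell markers, 5 of 5 detected, summed to 29.99 to 52.18 at 0 h, to 1225 to 1946 in WT and to 1034 to 1071 in cKO at 4 h, almost wholly from Clec9a, while Flt3 stayed at 3.54 or less. The neutrophil list, led by S100a8 and S100a9 and with Ly6g at 7.37 or less, summed at 0 h to 18570 to 19490 in WT against 21170 to 28210 in cKO, and at 4 h to 14920 to 17860 against 17080 to 19870. Their part in the class I values was not tested, and in bulk samples fewer cells of a type and less RNA per cell cannot be told apart.

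Coverage differed widely among the class I genes. B2m led in all 4 groups and ranked 17 of all genes in WT at 0 h and 4 in WT at 4 h, where Nlrc5 ranked 8157 and 1094. At 0 h the order in WT was B2m, H2-D1, H2-K1, Tapbp, Erap1, Tap1, Tap2 and Nlrc5, with means from 68034 down to 149, and no neighbours overlapped. In cKO at 0 h the order was the same except that Tap2 and Tap1 changed places and overlapped. After stimulation H2-K1 passed H2-D1 in WT, Tap1, Tap2 and Nlrc5 passed Erap1, and Erap1 stood last. In cKO at 4 h H2-K1 overlapped H2-D1, and Nlrc5 overlapped Erap1.

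**Figure D1:**
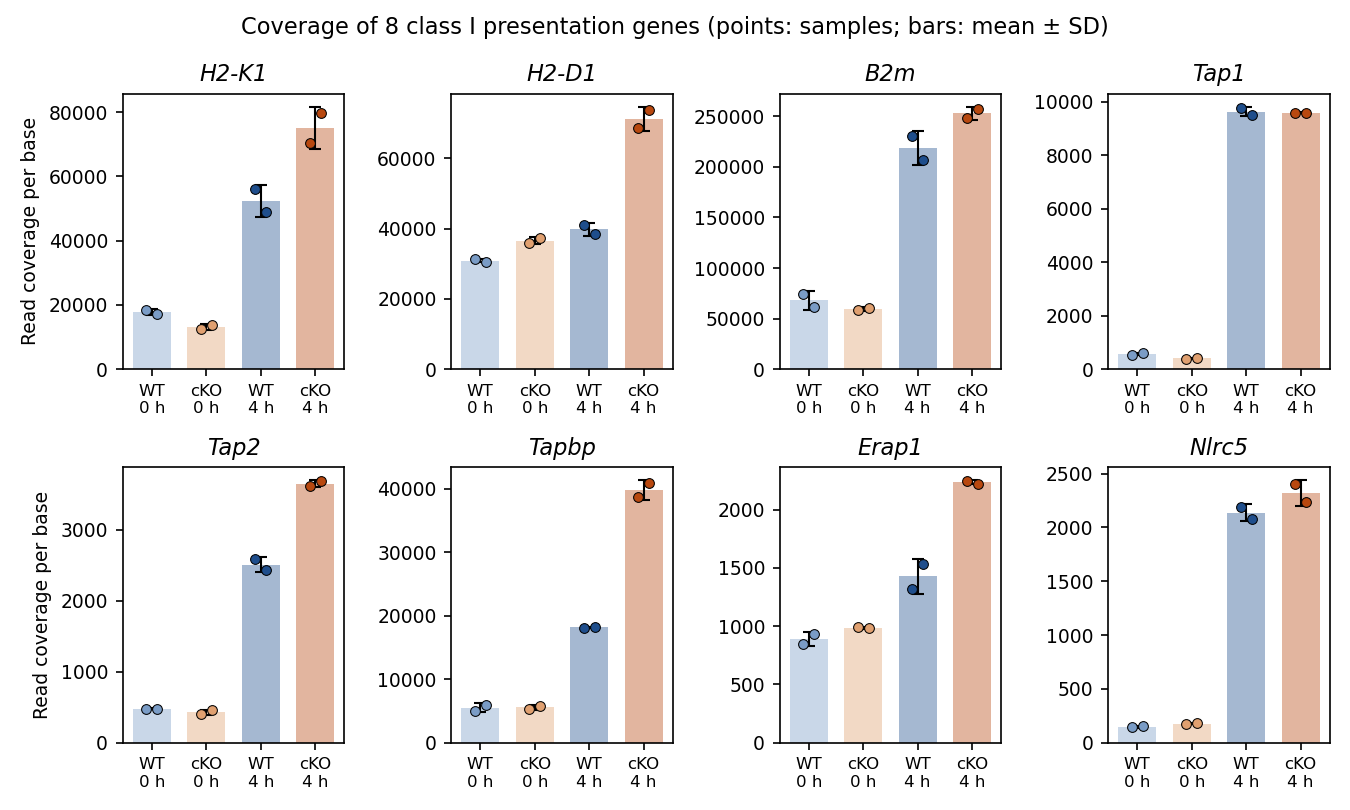
Read coverage per base (vertical axes, each from 0) of the 8 class I genes in WT and Nudt21-cKO BMDMs at 0 h and at 4 h of IFNγ/LPS, with 1 point for each sample and bars for the mean ± SD of 2 samples. At 4 h both cKO samples lie above both WT samples for 7 of the 8 genes, as for 51.1% of all genes. Tap1 samples of both genotypes lie between 9507 and 9765.

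The stimulation comparison asks how far class I transcripts rose with IFNγ/LPS in each genotype. Of the 8 genes, 7 rose in WT and 8 in cKO, while 12.0% and 13.5% of the 16284 genes tested rose in the 2 genotypes. A gene was called at a fold above 1.5 with an unadjusted p under 0.05 in limma. The median change of the class I genes was 1.70 in WT and 2.68 in cKO on the log2 scale, beside -1.24 and -1.03 over all genes, of which 56.0% and 51.9% fell. The balance over all genes turned with median-centring, from 1956 higher and 9121 lower to 5653 and 3621 in WT, and from 2196 and 8458 to 5322 and 3650 in cKO, and all 8 class I genes then rose in both genotypes.

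The transporter subunit Tap1 had the largest rise. Its coverage was 542 and 612 in the WT samples at 0 h and 9765 and 9507 at 4 h, which is a 16.7-fold rise of the mean. In cKO it was 391 and 417 at 0 h and 9585 and 9598 at 4 h, a 23.8-fold rise. The log2 changes were 4.06 in WT (SE 0.10, limma adjusted p = 1.67e-05) and 4.57 in cKO (SE 0.10, limma adjusted p = 1.39e-05). Its partner Tap2 rose less, from 483 and 481 to 2586 and 2436 in WT and from 400 and 455 to 3615 and 3686 in cKO, with folds of 5.21 and 8.54.

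Nlrc5, the transactivator, was the lowest of the 8 at 0 h and rose 14.3-fold in WT and 13.0-fold in cKO. It went from 142 and 157 to 2195 and 2082 in WT and from 173 and 184 to 2405 and 2236 in cKO. The log2 change was 3.84 in WT (SE 0.10, limma adjusted p = 1.86e-05) and 3.70 in cKO (SE 0.10, limma adjusted p = 2e-05). No sample at 0 h came near any sample at 4 h.

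The light chain gene B2m rose from 74444 and 61623 to 230207 and 207129 in WT, and from 58233 and 60637 to 248518 and 257645 in cKO, which are 3.21-fold and 4.26-fold rises. The heavy chain gene H2-K1 rose from 18563 and 17268 to 55979 and 48950 in WT and from 12505 and 13820 to 70390 and 79785 in cKO. Its folds were 2.93 and 5.71, with the cKO samples lowest before and highest after stimulation. H2-D1 responded least: it went from 31220 and 30550 to 41054 and 38536 in WT, a 1.29-fold difference that passed adjustment (log2 0.37, SE 0.09, limma adjusted p = 0.0184) but not the fold threshold. In cKO it rose 1.94-fold, from 35815 and 37383 to 68644 and 73641 (log2 0.96, SE 0.09, limma adjusted p = 0.000596).

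Tapbp, which encodes the peptide-loading factor tapasin, rose from 5071 and 5995 to 18114 and 18240 in WT and from 5298 and 5823 to 38716 and 40910 in cKO. The mean rose 3.29-fold and 7.16-fold, and the 0 h samples of both genotypes overlapped. Erap1, the aminopeptidase, rose from 849 and 931 to 1322 and 1535 in WT and from 992 and 982 to 2248 and 2224 in cKO, 1.61-fold and 2.27-fold. With adjusted p under 0.05 in limma, all 8 genes differed in both genotypes, as did 71.1% of all genes in WT and 69.0% in cKO. When samples were centred on their medians, H2-D1 also passed the fold threshold in WT, at 1.83 on the log2 scale. Without the second WT sample at 4 h, Erap1 in WT fell below the fold threshold, at 0.57.

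**Figure D2:**
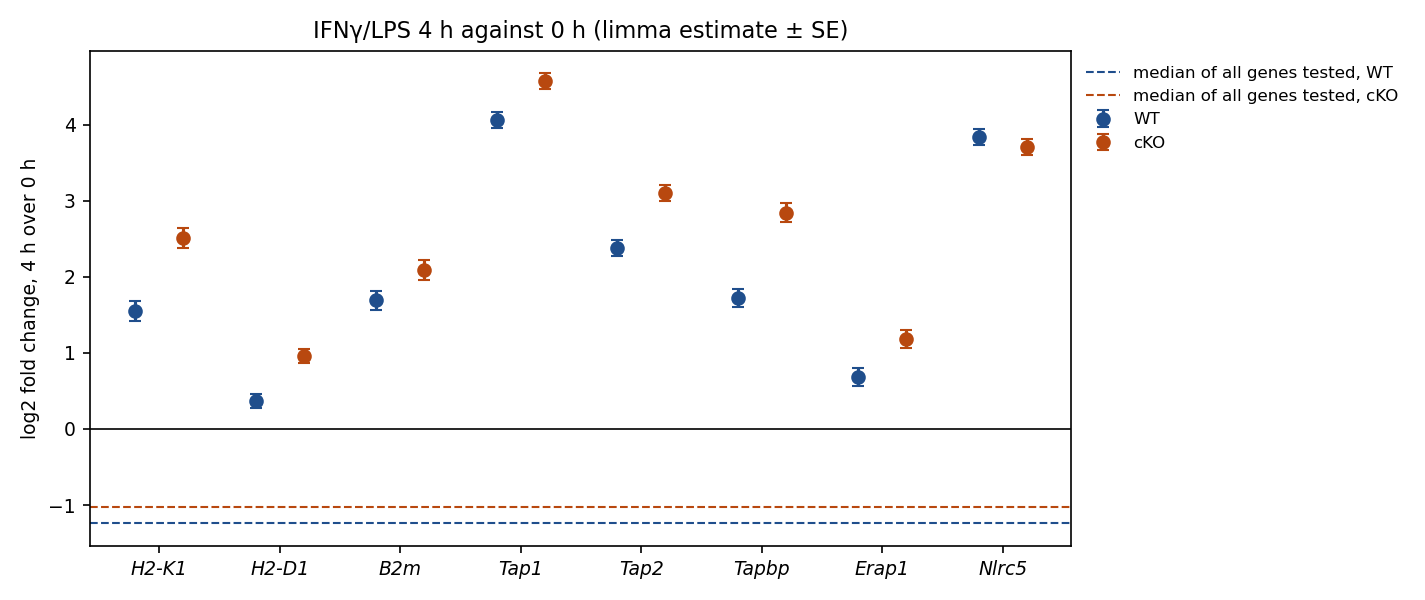
Log2 fold change from 0 h to 4 h of IFNγ/LPS (vertical axis, limma estimate ± SE) of the 8 class I genes in WT and in cKO BMDMs, with dashed lines at the median of all genes tested, -1.24 in WT and -1.03 in cKO. All 16 points lie above 0, from 0.37 for H2-D1 in WT to 4.57 for Tap1 in cKO, and only for Nlrc5 is the cKO point the lower of the pair.

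The genotype comparison at 4 h asks what loss of Nudt21 changed in stimulated macrophages. Tapbp, H2-D1 and Erap1 were higher in cKO and none of the 8 was lower, where 20.8% of the 14950 genes tested were called higher and 4.17% lower. Those shares depend on the scaling: 3112 genes were higher and 624 lower as deposited, 1552 and 1480 after median-centring, when Tapbp alone of the 8 was called, and 1941 and 1013 with equal total coverage, and 1996 or 1765 were higher without the first or the second cKO sample. Both cKO samples stood above both WT samples for 7 of the 8 genes, as they did for 51.1% of all genes, and in none did both stand below (14.9% of all genes). The median log2 fold change was 0.53 for the class I genes and 0.31 over all genes, and 5 of the 8 exceeded the latter.

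Tapbp had the largest difference of the 8. Its coverage was 18177 ± 89.2 (SD, n = 2) in WT against 39813 ± 1551 (SD, n = 2) in cKO, a 2.19-fold ratio. The log2 fold change was 1.13 (SE 0.10, limma adjusted p = 0.0477), which is 0.82 above the median gene. It was the only one of the 8 with an adjusted p under 0.05, as were 3.86% of all genes. Its adjusted p was above 0.05 without the filter and under either scaling, although the fold rule still called it in each of these. The adjusted call was also lost without any 1 of the 4 samples. A group of 1 is then left and the other alone gives the spread, so that loss cannot be weighed. With a pseudocount of 1, 2 of the 8 genes passed, and 5 did with all 8 samples in the fit. The share of all genes passing in those 2 fits was not worked out, so these counts are not read as particular to class I. Tapasin transcripts thus differed by more than the spread within either genotype.

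H2-D1 was 1.79-fold higher, at 71142 ± 3534 (SD, n = 2) against 39795 ± 1781 (SD, n = 2; log2 0.84, SE 0.11, limma adjusted p = 0.0598). Erap1 was 1.57-fold higher, at 2236 ± 16.8 (SD, n = 2) against 1428 ± 150.4 (SD, n = 2; log2 0.65, SE 0.13, limma adjusted p = 0.0823). These genes passed the fold rule and not adjustment. With samples centred on their medians, H2-D1 was at 0.50 and Erap1 at 0.31, and neither was called. Erap1 was also not called with equal total coverage (0.44), or without the first WT sample (0.54) or either cKO sample (0.64 and 0.66).

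H2-K1 and Tap2 were separated by genotype but stayed under the 1.5-fold threshold. H2-K1 was 75087 ± 6644 (SD, n = 2) in cKO against 52465 ± 4970 (SD, n = 2) in WT, 1.43-fold apart (log2 0.52, SE 0.14, limma adjusted p = 0.12). Tap2 was 3650 ± 50.5 (SD, n = 2) against 2511 ± 106 (SD, n = 2), 1.45-fold apart (log2 0.54, SE 0.10, limma adjusted p = 0.0785).

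B2m, Nlrc5 and Tap1 differed little. The log2 fold change of B2m was 0.21 (SE 0.12, limma adjusted p = 0.299) and that of Nlrc5 0.12 (SE 0.11, limma adjusted p = 0.496), and both turned negative after median-centring, at -0.12 and -0.22. For Tap1 it was -0.01 (SE 0.10, limma adjusted p = 0.97), the samples of the genotypes overlapped, and the sign was positive at 0.01 without the first WT sample. For a single gene the smallest two-sided p of an exact permutation test is 0.333 at this size, so calls rest on the variance that limma pools over genes.

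**Figure D3:**
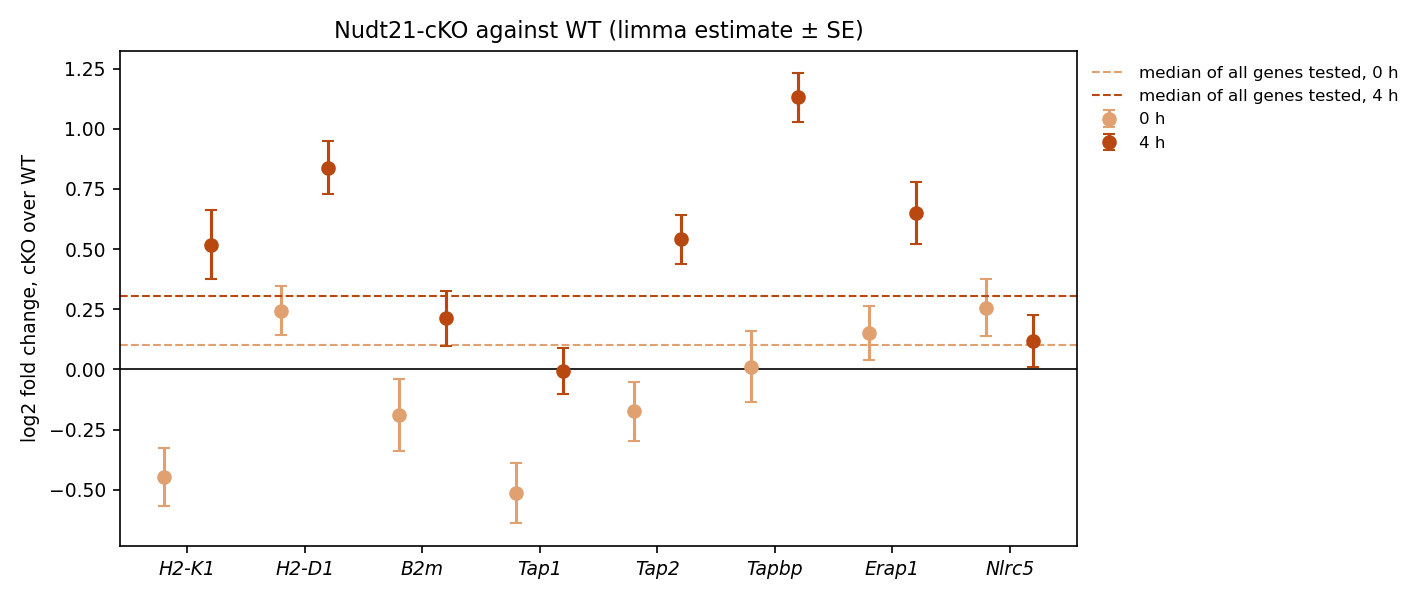
Log2 fold change of cKO over WT (vertical axis, limma estimate ± SE) of the 8 class I genes at 0 h and at 4 h, with dashed lines at the median of all genes tested, 0.10 at 0 h and 0.31 at 4 h. At 4 h Tapbp is highest at 1.13 and Tap1 lowest at -0.01, and at 0 h all points lie between -0.51 and 0.26.

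At 0 h, the comparison asks whether class I transcripts already differed without stimulation. None of the 8 was called in either direction, where 8.99% of the 16251 genes tested were called higher, 5.61% lower and 1.03% had an adjusted p under 0.05. With an unadjusted p under 0.05 in limma there were 2 of the 8, H2-K1 and Tap1, where 21.3% of all genes had one. Both cKO samples lay below both WT samples for H2-K1, B2m, Tap1 and Tap2 (20.9% of all genes) and above them for H2-D1, Erap1 and Nlrc5 (36.1% of all genes).

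Tap1 was 404 ± 18.7 (SD, n = 2) in cKO against 577 ± 49.4 (SD, n = 2) in WT, a ratio of 0.70 (log2 -0.51, SE 0.13, limma adjusted p = 0.183). It was called lower after median-centring (-0.61), with equal total coverage (-0.64) and without the first WT sample (-0.60). H2-K1 was 13162 ± 929 (SD, n = 2) in cKO against 17915 ± 916 (SD, n = 2) in WT (log2 -0.45, SE 0.12, limma adjusted p = 0.198). The other heavy chain gene, H2-D1, was at 0.24 (SE 0.10, limma adjusted p = 0.302). Log2 fold changes of the remaining 5 lay between -0.19 for B2m and 0.26 for Nlrc5, and that of Tapbp, at 0.01, turned to -0.08 after median-centring.

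The interaction, the genotype effect at 4 h minus that at 0 h over all 8 samples, asks whether the effect of Nudt21 loss differed with stimulation. It was positive for 7 of the 8 genes, as for 63.0% of all genes, and its median was 0.55, with 0.20 over all genes. Only Tapbp passed adjustment, where 2.28% of the 16284 genes tested did so in the positive and 0.761% in the negative direction. Its value was 1.12 (SE 0.17, limma adjusted p = 0.0462), or 0.92 relative to the median gene. This call was lost without the filter, under either scaling and with the replicate block, with limma adjusted p from 0.0504 to 0.171. It was also lost without any 1 of the 8 samples, which leaves 1 sample in a group, at values from 0.999 to 1.24.

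With an unadjusted p under 0.05 there were 6 of the 8 genes, where 22.1% of all genes had one. The values were 0.96 for H2-K1 (SE 0.18, limma adjusted p = 0.0681), 0.71 for Tap2 (SE 0.15, limma adjusted p = 0.0765) and 0.59 for H2-D1 (SE 0.13, limma adjusted p = 0.0891). Tap1 was at 0.51 (SE 0.15, limma adjusted p = 0.138) and Erap1 at 0.50 (SE 0.16, limma adjusted p = 0.167). B2m, at 0.40, and Nlrc5, at -0.14, had an unadjusted p above 0.05. H2-K1 and Tap1 were the genes with an unadjusted p under 0.05 at 0 h and a negative value there, and at 4 h they stood at 0.52 and -0.01.

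Ratios within a sample do not depend on how samples are scaled, and they showed unequal change among partners. H2-K1 over H2-D1 at 0 h was 0.595 and 0.565 in WT against 0.349 and 0.370 in cKO, and at 4 h it was 1.36 and 1.27 against 1.03 and 1.08. At both times the cKO samples were lower. B2m over the 2 heavy chains together at 0 h was 1.495 and 1.29 in WT against 1.205 and 1.18 in cKO, and at 4 h it was 2.37 in both WT samples against 1.79 and 1.68, so that the light chain transcript gained less over the heavy chains in cKO.

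Tap1 and Tap2, whose products pair in 1 transporter, were near equal coverage at 0 h. Tap1 over Tap2 at 0 h was 1.12 and 1.27 in WT against 0.976 and 0.917 in cKO, and at 4 h it was 3.78 and 3.90 against 2.65 and 2.60. Tapbp over Tap1 moved the other way with stimulation, from 9.35 and 9.80 to 1.86 and 1.92 in WT and from 13.6 and 14.0 to 4.04 and 4.26 in cKO. For all 4 ratios the samples of the genotypes did not overlap at either time. Such separation was common among single genes. At 4 h 51.1% of all genes were separated with cKO higher and 14.9% with cKO lower, and at 0 h 36.1% and 20.9%. How often ratios of other genes separate was not worked out. The ratios also share genes, as Tap1 and the heavy chains each enter more than 1, so they are not independent of each other. No test beyond this comparison of ranges was run on the ratios.

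**Figure D4:**
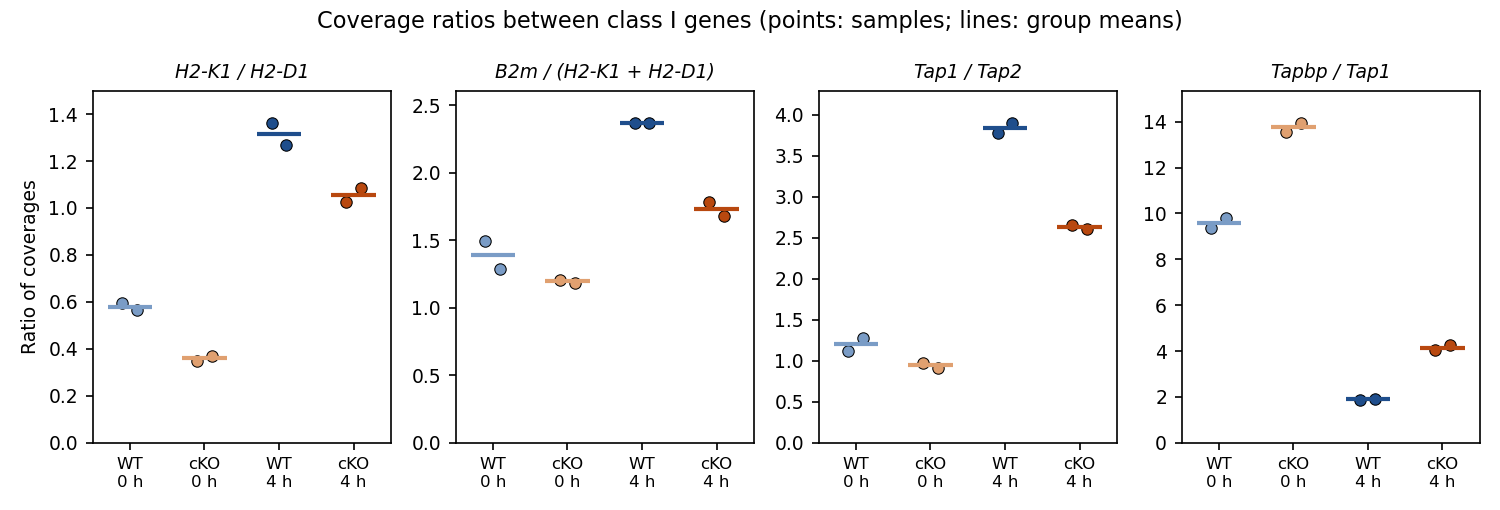
Ratios of coverage within each sample (vertical axes from 0) for 4 pairs of class I genes, with 1 point for each sample and a line at the group mean. The first 3 ratios are lower in cKO than in WT at both times, whereas Tapbp over Tap1 is higher in cKO, at 4.04 and 4.26 against 1.86 and 1.92 at 4 h.

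Genes that work beside the class I genes were taken from lists of 56 symbols in 7 roles, of which 54 were tested. At 4 h, 14 of the 54 were higher in cKO and 1 lower, with 20.8% and 4.17% of all genes called, and their median log2 fold change was 0.28, beside 0.31 over all genes. After median-centring 5 of the 54 were higher and 4 lower (10.4% and 9.9% of all genes), and with equal total coverage 7 and 3 (13.0% and 6.8%). At 0 h 2 were higher and 2 lower, where 8.99% and 5.61% of all genes were called, and these became 1 and 4 after median-centring (7.2% and 7.0%) and 0 and 5 with equal total coverage (6.8% and 7.4%). Stimulation raised 27 and lowered 10 in WT (12.0% and 56.0% of all genes), and raised 29 and lowered 10 in cKO (13.5% and 51.9% of all genes). Median-centring gave 45 and 2 in WT (34.7% and 22.2% of all genes) and 43 and 2 in cKO (32.7% and 22.4%). In the interaction 4 passed adjustment, all positive: H2-Q4, Cd1d1, Psmb8 and Nfya, where 2.28% of all genes passed in the positive and 0.761% in the negative direction. All 4 of these calls were lost after median-centring and with the replicate block, with limma adjusted p from 0.0653 to 0.172. After median-centring 1 other companion, Fcgrt, was called in the negative direction (log2 -0.95), where 1.1% of all genes were called in each direction.

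Nonclassical class I and class I-like genes went in both directions. At 4 h 6 of the 13 tested were higher in cKO, namely H2-Q4, H2-Q6, H2-Q7, H2-Q10, H2-T24 and Cd1d1, and Fcgrt, the neonatal Fc receptor, was lower (log2 -1.27), where 20.8% and 4.17% of all genes were called. The counts became 3 and 3 after median-centring, when H2-Q4, H2-Q10 and H2-T24 were not called, and 5 and 3 with equal total coverage, when H2-Q10 was not, and under both H2-M3 and Mr1 were called lower. The largest rise with stimulation was that of H2-Q6 in WT (log2 6.08) and of H2-Q7 in cKO (log2 7.95). H2-Q7 at 0 h had coverage of 30.8 and 21.1 in WT against 30.95 and 19.99 in cKO, and at 4 h 1945 and 1490 against 5581 and 6848. It was 3.62-fold higher in cKO at 4 h (log2 1.86, SE 0.22, limma adjusted p = 0.0554), and the 0 h samples overlapped. Cd1d1, which presents lipids to NKT cells, at 0 h was 136 and 92.6 in WT against 68.2 and 76.9 in cKO, and at 4 h 135 and 116 against 364 and 410. Its interaction was 2.26 (SE 0.31, limma adjusted p = 0.0357). H2-Q6 and H2-Q7 are close copies of each other, so their split of reads is uncertain. H2-M3, which presents formylated peptides, was lower in cKO at 0 h (log2 -1.04), as was Mr1 (-0.67), which makes 2 of 13 where 5.61% of all genes were lower. Fcgrt was called lower at 0 h as well after median-centring (-0.67) and with equal total coverage (-0.70). That makes 3 of 13, where 7.0% and 7.4% of all genes were lower. H2-T23, the Qa-1 heavy chain, was not called by genotype at either time, at 0.32 and 0.10, and its 4 h sign turned after median-centring (-0.02) and its 0 h sign with equal total coverage (-0.03).

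All 5 immunoproteasome and PA28 genes rose with stimulation in both genotypes, by 1.90 to 3.35 in WT and 2.28 to 3.31 in cKO on the log2 scale. Of all genes, 12.0% rose in WT and 13.5% in cKO. After median-centring 34.7% and 32.7% of all genes rose, with these 5 and all 5 loading chaperones among them in both genotypes. All 5 of the constitutive subunits and regulators described next rose then too. Psme2, a PA28 subunit, rose most in WT (3.35) and Psmb9 in cKO (3.31). At 4 h Psmb8 (log2 0.66, limma adjusted p = 0.0648) and Psmb10 (log2 0.73, limma adjusted p = 0.061), which encode catalytic subunits, were higher in cKO, so that 2 of the 5 were called where 20.8% of all genes were. Psmb8 coverage at 0 h was 1120 and 1246 in WT against 957 and 1026 in cKO, and at 4 h 5638 and 5805 against 8937 and 9103. Its interaction was 0.91 (SE 0.14, limma adjusted p = 0.0479). Psmb9, the third catalytic subunit, lies head to head with Tap1, and their 5′ ends overlap in the annotation, where reads cannot be assigned without strand. At 4 h it was 2436 and 2560 in WT against 2606 and 2465 in cKO, which overlap as the Tap1 samples do. Psmb9 was at -0.70 at 0 h (SE 0.23, limma adjusted p = 0.237), beside -0.51 for Tap1, and it was called lower with a pseudocount of 1 (-0.70), after median-centring (-0.79), with equal total coverage (-0.82), with all 8 samples in the fit (-0.70) and without the second WT sample (-0.95).

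The subunits that the immunoproteasome replaces, with other proteasome regulators, gave 2 of 5 higher in cKO at 4 h, Psmb5 (0.77) and Psmb6 (0.77), and Psmb6 was higher at 0 h as well (0.60), where 20.8% of all genes were higher at 4 h and 8.99% at 0 h, the background for the roles that follow too. Psmb7 rose most of these with stimulation in WT (0.90) and Psmb6 in cKO (0.92). None of the 5 loading chaperones was called by genotype at either time, and Tapbpl, the tapasin-related editor, rose with stimulation by 2.30 in WT and 2.61 in cKO. Among 6 other trimming peptidases none was called by genotype at 4 h, although Blmh was lower after median-centring (-0.60), and Lnpep was higher at 0 h (0.71), while Lap3 rose with stimulation by 2.098 in WT and 1.96 in cKO. Of 5 cross-presentation genes, Cybb, the oxidase subunit, was higher in cKO at 4 h (0.64), and Rab27a fell with stimulation by 1.65 in WT and by 1.51 in cKO. Both of these falls were lost after median-centring, at -0.18 and -0.31. Under either scaling of the samples, Psmb8, Psmb10, Psmb5, Psmb6 and Cybb were not called at 4 h and Psmb6 was not called at 0 h, and Lnpep was lost at 0 h with equal total coverage (0.58). With 1 sample left out, Lnpep at 0 h was not called without the first WT sample (0.60) or either cKO sample (0.78 and 0.64), Psmb6 at 0 h without the second WT sample (0.55) or the second cKO sample (0.59), and Cybb at 4 h without the second cKO sample (0.62).

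Of 15 regulators of class I promoters, 8 rose and 4 fell with stimulation in WT, and 8 rose and 3 fell in cKO, where 12.0% and 56.0% of all genes rose and fell in WT and 13.5% and 51.9% in cKO. Rfxap, Rfxank and Nfyc fell in both genotypes and Nfya in WT. After median-centring 11 rose and 1 fell in WT and 12 and 1 in cKO, and Rfxank was the gene that still fell. Ciita, the class II transactivator and a relative of Nlrc5, rose by 4.35 in WT and 5.38 in cKO. Irf1, an interferon-induced activator, rose by 4.18 and 4.81. At 4 h 3 of the 15, Nfya, Ciita and Rfxank, were higher in cKO, a share near the 20.8% of all genes, and Rfxank was not called under either scaling (0.32 and 0.45). Nfya, a subunit of the Y box factor, at 0 h was 1633 and 1717 in WT against 1877 and 2065 in cKO, and at 4 h 602 and 598 against 1370 and 1439. It was 2.34-fold higher at 4 h (log2 1.23, SE 0.10, limma adjusted p = 0.0466), with an interaction of 0.99 (SE 0.14, limma adjusted p = 0.0372). Irf1 was at 0.51 (SE 0.12, limma adjusted p = 0.0934) and was not called. Rfx5, the X box factor, was at -0.23 (SE 0.10, limma adjusted p = 0.225).

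**Figure D5:**
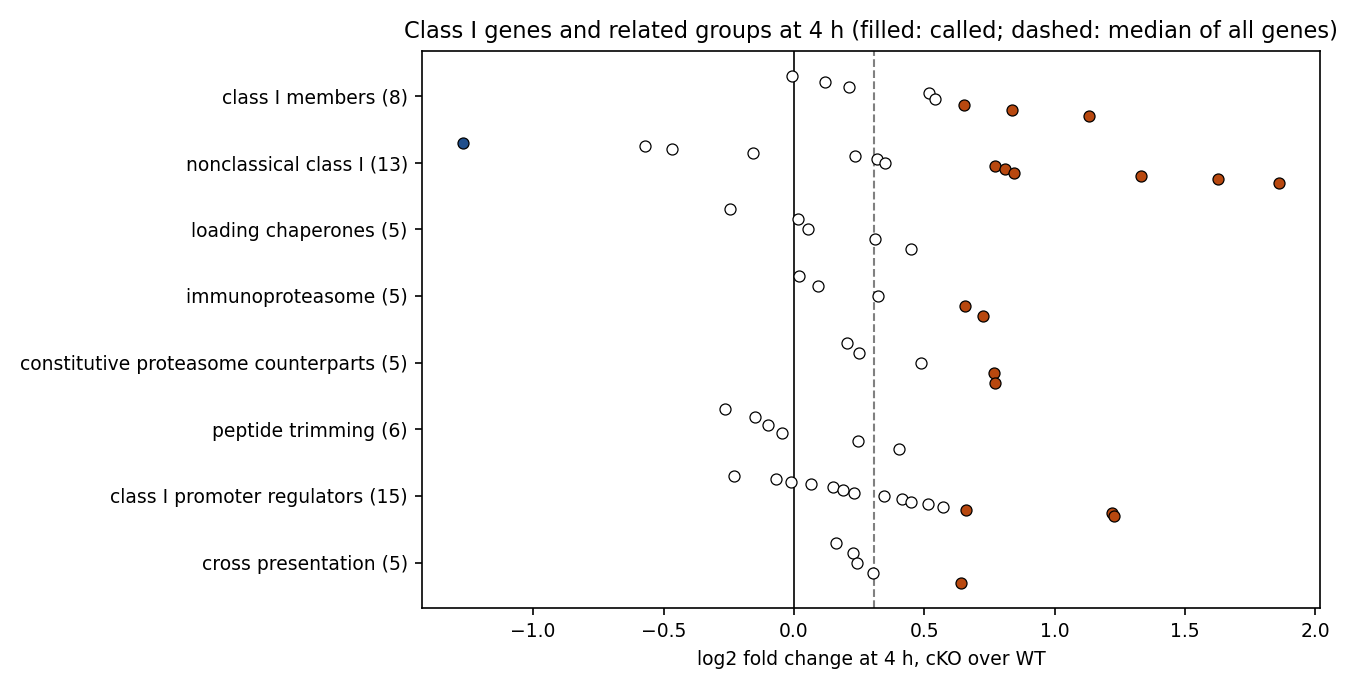
Log2 fold change of cKO over WT at 4 h (horizontal axis) of each gene tested, by role (rows, with the number of genes), filled where it was called higher (orange) or lower (blue) and open where not. The dashed line marks the median of all genes, 0.31. The 3 class I genes called lie from 0.65 to 1.13, the nonclassical genes spread from -1.27 to 1.86, and no chaperone or trimming gene is filled.

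Nudt21 binds UGUA motifs near polyadenylation sites, so the annotated 3′UTRs of the 8 genes were examined. Their longest 3′UTR was 228 bases for Tap2, 448 for B2m, 451 for Tap1, 455 for H2-K1, 629 for H2-D1, 1141 for Tapbp, 1197 for Nlrc5 and 2472 for Erap1, and the median over 13528 genes tested was 1268. UGUA occurred 0 times in that of Tap2, 2 times in those of B2m and H2-K1, 4 times in those of H2-D1 and Tapbp, 5 times in that of Tap1, 6 times in that of Nlrc5 and 14 times in that of Erap1, where the median gene had 6. Of the 3 genes called higher at 4 h, Erap1 had more UGUA than the median gene and Tapbp and H2-D1 fewer. These counts are not adjusted for 3′UTR length, which was 629 bases for H2-D1 and 1268 for the median gene. Whether they bear on the genotype differences was not tested. The use of polyadenylation sites was not analysed here. Heavy chain genes resemble each other, and 3.6% of all 100-base windows of H2-D1 transcripts and 1.0% of those of H2-K1 occur in another gene, so that reads there could be assigned to either, and the share was 0.1% for Tapbp and 0 for the other 5.

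The genes whose pattern over the 8 samples was most like each class I gene were found by the root mean square difference of their log2 values, each centred on its own mean, among 16276 genes. Tap2 was most like Psmb8 (0.075), followed by Cdyl (0.106) and Pml (0.118). Tap1 was most like H2-DMa (0.074), a class II loading gene, then Mefv (0.113). Nlrc5 was most like Cflar (0.126), H2-K1 like Orai2 (0.082), H2-D1 like Rhob (0.064), B2m like Tmem243 (0.103), Tapbp like D16Ertd472e (0.103) and Erap1 like Vcpip1 (0.036). Within the 8, the closest pairs were H2-K1 with B2m (0.168) and H2-D1 with Erap1 (0.180), and Tap1 was nearest to Nlrc5 (0.390). These are descriptions over samples that share the 2 treatments, and small values are easier to reach for genes that changed little.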

How the data were processed

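Paired-end RNA-seq of 8 BMDM samples was analysed from 2 deposited tables, 1 for each time. The authors aligned reads to mm10 (GRCm38) with HISAT2 2.2.1 and quantified RefSeq genes with StringTie 2.1.7, per the labels and the study's methods. The deposited signal is read coverage averaged over the bases of a gene, a reading taken from the values because the file headers do not name the unit, and it carries no scaling between samples. The tables also hold the authors' fold changes, p-values and adjusted p-values, which were not used. Of the per-sample columns, 0 were left unused.

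From these values log2(coverage + 0.1) was fitted with limma 3.58.1 in R 4.3.3, for genes whose mean coverage reached 0.5 in the samples fitted, with Benjamini-Hochberg adjustment over all genes tested. Genotypes were compared with the 4 samples of a time, and stimulation and the interaction in 1 fit of all 8 samples. A gene was called at a fold above 1.5 with an unadjusted p under 0.05, as in the study's methods, and the interaction at an adjusted p under 0.05. Folds of weakly covered genes come out too small on this scale. The fits were tested on simulated data. Groups came from sample titles, and the labels do not say whether the same mice served both times. Tests had been laid down for counts and for FPKM, and since coverage is neither, it was given the limma test for normalized values.

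Members and lists were chosen with earlier results of these data known. All 8 class I genes are named, with Psmb8, Psmb9, Irf1, Rfx5 and H2-T23, the called gene with the largest change in each role and comparison, and most genes in counts of 5 or fewer; the other companions named were chosen after their values were seen. A listed gene that the rule names is not reported here. Alternatives covered the pseudocount, the filter, 2 scalings, the samples in the fit, a replicate block and leaving out each sample. Positions and 3′UTRs came from GENCODE M21 and promoters from RefSeq. Alternative polyadenylation was not analysed here.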

Additional observations from a re-analysis of the deposited data

Results flagged for a closer look

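The effect of Nudt21 loss differed between 4 h and 0 h, as a limma interaction past adjustment at 0.05, for 5 of the genes named. They were 1 of the 8 class I genes and 4 of the 54 companions tested, and every companion that passed was named. Of the 16284 genes tested, 2.28% passed in the positive and 0.761% in the negative direction. The log2 difference was 1.12 for Tapbp, 0.91 for Psmb8, 2.26 for Cd1d1, 0.99 for Nfya and 1.18 for H2-Q4. For Tapbp, both cKO samples exceeded both WT samples at 4 h and overlapped them at 0 h. Psmb8, Cd1d1 and H2-Q4 had both cKO samples below both WT samples at 0 h and above them at 4 h. Nfya was above at both times, and in WT it fell with stimulation (log2 -1.48) while in cKO its change of -0.49 was under the fold threshold; after median-centring these were -0.01 and 0.71. None of the 5 calls remained with the replicate numbers as a block (limma adjusted p from 0.122 to 0.172) or after median-centring (limma adjusted p from 0.0653 to 0.116). The block left the log2 differences unchanged. After median-centring they were 0.85 for Tapbp, 0.65 for Psmb8, 1.99 for Cd1d1, 0.73 for Nfya and 0.92 for H2-Q4. Leaving out any 1 of the 8 samples ended the call for Tapbp, Psmb8 and Nfya, and leaving out a cKO sample of either time ended it for Cd1d1 and H2-Q4, as did leaving out a WT sample at 4 h for Cd1d1 and at 0 h for H2-Q4. Each of these fits leaves 1 sample in a group. No group was large enough to test for a sample that stands apart.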

How the results depend on the processing

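Scaling of the samples moved several genotype results. At 4 h, 3 class I genes were called higher, and 1 after median-centring. The count with an adjusted p under 0.05 was 1, where 3.86% of all genes passed. It was 2 with a pseudocount of 1, 5 with all 8 samples in the fit, 0 without the filter and 0 with either scaling. The share of all genes passing in those other fits was not worked out. The call was also lost whichever sample was left out, where a group holds 1 sample. At 0 h no class I gene was called lower, and 1 was after median-centring, 1 with equal total coverage and 0 to 1 when 1 sample was left out. The interaction count of 1 became 0 without the filter, 0 with either scaling, 0 with a replicate block and 0 whichever sample was left out. Signs turned at 4 h after median-centring for B2m (-0.12), Nlrc5 (-0.22), Psmb9 (-0.32) and H2-T23 (-0.0196), and with equal total coverage for Nlrc5 (-0.094) and Psmb9 (-0.19). At 0 h they turned for Tapbp (-0.0815 and -0.112 under the 2 scalings) and H2-T23 (-0.0259 with equal total coverage), and in the interaction after median-centring for Rfx5 (-0.0024) and H2-T23 (-0.0449). With 1 sample left out the range was -0.0259 to 0.0127 for Tap1 and -0.019 to 0.0616 for Psmb9 at 4 h, and -0.11 to 0.131 for Tapbp at 0 h. The cause was not tested. The replicate numbers recur at both times, but deviations of samples with the same number correlated at only 0.02 in WT and 0.024 in cKO, so they were taken as unpaired, and with the block the Tapbp interaction of 1.12 had a limma adjusted p of 0.171. All stimulation calls of the class I genes kept their direction under every alternative. The class I genes, Nudt21 and part of the companions were followed singly under the alternatives. Of their values, 406 of 455 kept their direction and side of the threshold where all samples were kept. With 1 sample left out, 531 of 584 did so. Calls of other companions also changed with the scaling, and they are not in these counts. The files give no reads per gene, and the spread rests on 2 samples a group.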
